A study of Rattus norvegicus with 6 samples.

Results

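The Rab small GTPases were taken as the rows of the deposited table whose gene name is Rab followed by a number and at most a letter and a digit, which gave 57 genes of 22250. RNA came from neonatal rat cardiomyocytes of wild-type Sprague-Dawley rats aged 1 day, whose hearts had been digested with collagenase and whose cells were grown with 10% foetal bovine serum. The cultures received DMSO, the solvent, or 3Cl-HBA at 40 µM, both for 48 h, with 3 libraries per treatment; the series title concerns activation of the lactate receptor Hcar1. The labels do not say that libraries came from separate cultures or animals, so p-values speak only for the spread between these libraries, which may be technical. Libraries held 13240800 to 17202191 reads assigned to genes, of which the Rab genes took 0.332% to 0.348%. The summed level of 6 cardiomyocyte markers was 13307 to 14300.4 CPM in DMSO and 13194 to 13804 CPM after 3Cl-HBA (CPM, reads scaled to the library total after TMM adjustment) and that of 5 fibroblast markers 11903 to 12714 CPM in DMSO and 12019.6 to 12267 CPM after 3Cl-HBA. Macrophage and leukocyte markers summed to 131 to 144 CPM in DMSO and 146 to 149 CPM after 3Cl-HBA, without overlap between the treatments. Sums of endothelial, smooth muscle and pericyte, Schwann cell and neuron, and erythroid markers overlapped. The part of macrophages and leukocytes in the Rab results was not tested. The cell type that a Rab transcript came from cannot be told in bulk RNA, nor can fewer cells of a type be told from less RNA per cell.

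Rab proteins are membrane-bound switches that direct vesicle traffic. Bound to GTP, a Rab on a membrane recruits effectors that bud, move, tether or fuse vesicles, and after GTP hydrolysis it is drawn off the membrane by a GDP dissociation inhibitor until an exchange factor reloads it. Each Rab marks particular compartments, so the set of Rab genes a cell expresses describes its secretory, endosomal and recycling routes. In heart muscle these routes carry ion channels, glucose transporters and natriuretic peptides between internal stores and the cell surface.

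Most of the family was expressed. Of 57 members, 49 had a mean of at least 1 FPKM over the 6 libraries and 32 had at least 10 FPKM (56.1%, against 31.8% of all genes in the table). FPKM, reads scaled to gene length and library total, is the scale used here to compare levels between genes. The median member had 14.5 FPKM, against 2.35 FPKM for the median of all genes. The members summed to 1691 ± 19.3 FPKM in DMSO and 1713 ± 34.8 FPKM after 3Cl-HBA (SD, n = 3 each, as for all means below unless stated; in each later pair of means DMSO comes first). The 3 most abundant genes made up 30.3% ± 0.589 (SD, n = 6) of that sum, and the 10 most abundant 58.8% ± 0.707.

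**Figure D1:**
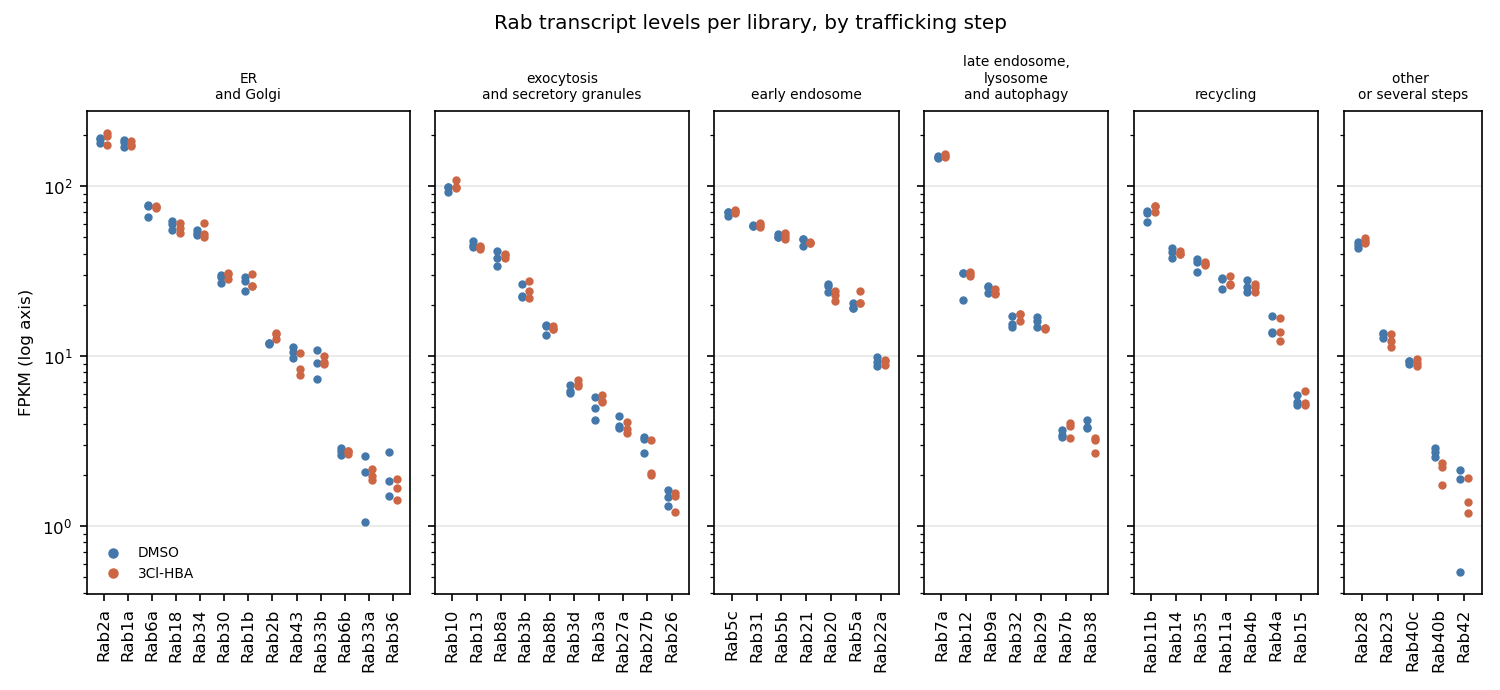
FPKM of each Rab gene with a mean of at least 1 FPKM (log axis), one point per library, in 6 panels by trafficking step; blue points are DMSO and orange points 3Cl-HBA. Rab2a, Rab1a and Rab7a stand highest; levels range widely within each panel.

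The order at the top was stable from library to library. Rab2a, Rab1a, Rab7a and Rab10 held ranks 1 to 4 in each of the 6 libraries. Below them, neighbours were often within their spread. Rab6a exceeded Rab11b in 4 of 6 libraries and Rab11b exceeded Rab5c in 4 of 6. Over the whole order, 9 of 56 neighbouring pairs had ranges over the 6 libraries that did not overlap. Rab2a has the shortest gene length of the family in the table, 621 bases, where lengths ran to 7036 bases. By reads not divided by length, Rab7a ranked 1, Rab1a 2 and Rab2a 9.

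Genes that act between the endoplasmic reticulum and the Golgi or within the Golgi made up the largest share of the family. The 14 members placed at this step summed to 645 ± 23.1 and 649.7 ± 29.3 FPKM, or 38.0% ± 0.893 (SD, n = 6) of all Rab FPKM. Rab2a, which acts at the interface of the endoplasmic reticulum and the Golgi (ENSRNOG00000005963, chromosome 5, 21632926 to 21695519, as deposited, with no genome build named), had 190.2, 189 and 178 FPKM under DMSO and 204, 198 and 173 under 3Cl-HBA. Rab1a, needed for transport from the endoplasmic reticulum to the Golgi (ENSRNOG00000004992, chromosome 14, 104475082 to 104501020), had 186, 183 and 170.4 FPKM under DMSO and 184, 174 and 171 under 3Cl-HBA. The libraries of the treatments overlapped for both genes.

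Rab6a, which drives carriers within and out of the Golgi (ENSRNOG00000018176, chromosome 1, 165625058 to 165664192), had 75.7, 77.0 and 65.7 FPKM under DMSO and 74.7, 76.5 and 74.8 under 3Cl-HBA. DMSO replicate 3 was the lowest library for Rab6a and the groups overlapped. Rab18, found on the endoplasmic reticulum and on lipid droplets, had 59.3 ± 3.65 and 56.8 ± 3.64 FPKM, and the Golgi and ciliary Rab34 had 53.2 ± 2.05 and 54.4 ± 5.36 FPKM. The remaining members of this step ranged from Rab30, at 28.6 ± 1.67 and 29.7 ± 1.18 FPKM, down to Rab36, at 2.02 ± 0.635 and 1.66 ± 0.230 FPKM, and Rab19, with 0 to 4 reads per library.

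Rabs of exocytosis and secretory granules were led by Rab10, Rab13 and Rab8a, and of the Rab3 and Rab27 genes only Rab3b exceeded 10 FPKM. The step summed to 238 ± 0.584 and 244 ± 6.03 FPKM. Rab10, an exocytic Rab that carries the insulin-responsive glucose transporter to the surface in fat cells (ENSRNOG00000047088, chromosome 6, 27668403 to 27721120), had 98.4, 99.0 and 91.6 FPKM under DMSO and 98.0, 108 and 97.7 under 3Cl-HBA. Its 3Cl-HBA replicate 2 was the highest library and DMSO replicate 3 the lowest, and the other 4 lay together. Rab13, known from cell junctions, had 43.5, 44.8 and 47.5 FPKM under DMSO and 44.4, 42.8 and 43.5 under 3Cl-HBA. Rab8a, which acts in delivery from the Golgi to the plasma membrane, had 34.0, 37.8 and 41.2 FPKM under DMSO and 40.0, 39.5 and 37.9 under 3Cl-HBA. In both genes the groups overlapped.

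The Rab3 and Rab27 proteins dock secretory granules in neurons, endocrine and blood cells. Among the Rab3 genes, Rab3b reached 23.8 ± 2.48 and 24.5 ± 2.78 FPKM, Rab3d 6.34 ± 0.378 and 6.87 ± 0.272 FPKM and Rab3a 4.96 ± 0.743 and 5.56 ± 0.311 FPKM, with Rab3c at 2 reads in a single library. Rab27a and Rab27b had 4.02 ± 0.353 and 3.77 ± 0.275 FPKM and 3.09 ± 0.346 and 2.41 ± 0.669 FPKM. Rab26, a granule and vesicle Rab, had 1.47 ± 0.160 and 1.42 ± 0.193 FPKM. The summed level of this step in each 3Cl-HBA library (239.6, 251 and 241 FPKM) was above each DMSO library (238, 238 and 237 FPKM), with a gap between the nearest libraries smaller than the SD of the treated group. No test was applied to this sum, and the other 5 sums overlapped between treatments.

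**Figure D2:**
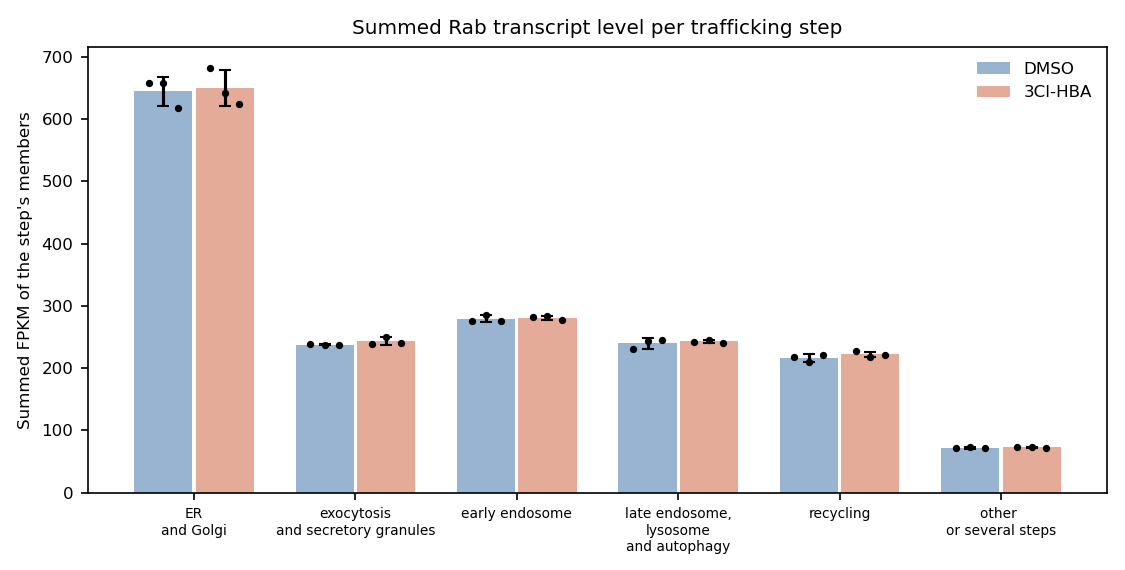
Summed FPKM of the Rab genes of each trafficking step; bars are means of 3 libraries, error bars SD and black points single libraries, blue for DMSO and orange for 3Cl-HBA. The endoplasmic reticulum and Golgi step is the highest, at 645 and 649.7 FPKM, and the bars of the 2 treatments are of similar height at each step.

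Early endosome Rabs were expressed throughout. The 7 members summed to 279 ± 5.49 and 281 ± 3.02 FPKM, 16.5% ± 0.214 (SD, n = 6) of Rab FPKM, and the lowest of them, Rab22a, still had 9.23 FPKM on average. Rab5c, one of the Rab5 proteins that fuse early endosomes (ENSRNOG00000018568, chromosome 10, 88621925 to 88645364), had 66.9, 69.8 and 70.3 FPKM under DMSO and 69.7, 72.6 and 71.3 under 3Cl-HBA. Rab31, which acts between the trans-Golgi network and endosomes, had 58.3, 58.6 and 57.8 FPKM under DMSO and 60.9, 57.6 and 59.2 under 3Cl-HBA. Rab5b had 50.2, 52.0 and 49.8 FPKM under DMSO and 50.8, 52.6 and 48.6 under 3Cl-HBA. These genes varied little, with a coefficient of variation over the 6 libraries of 2.72%, 2.06% and 2.89%.

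At the late endosome and lysosome, Rab7a dominated. This Rab, which drives late endosome maturation and fusion with lysosomes (ENSRNOG00000012247, chromosome 4, 119910478 to 119959173), had 148, 147 and 150.3 FPKM under DMSO and 149, 153 and 149 under 3Cl-HBA. Its coefficient of variation of 1.58% was the lowest among the 32 members with at least 10 FPKM, whose median was 6.14%. Rab12, which directs cargo from recycling endosomes to lysosomes, had 21.4, 30.7 and 30.7 FPKM under DMSO and 30.4, 31.4 and 29.5 under 3Cl-HBA, and DMSO replicate 1 lay below the other 5 libraries. Rab9a, which returns cargo from late endosomes to the trans-Golgi network, had 23.6, 25.8 and 25.3 FPKM under DMSO and 23.4, 24.9 and 23.1 under 3Cl-HBA. Rab32 and Rab38, which serve lysosome-related organelles, had 15.8 ± 1.31 and 17.0 ± 0.945 FPKM and 3.92 ± 0.224 and 3.06 ± 0.316 FPKM.

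Recycling Rabs summed to 216 ± 6.02 and 222 ± 4.38 FPKM, 12.9% ± 0.356 (SD, n = 6) of the family. Rab11b, one of the Rab11 proteins of the slow recycling endosome (ENSRNOG00000007648, chromosome 7, 18598880 to 18612147), had 69.2, 61.3 and 70.9 FPKM under DMSO and 75.9, 76.0 and 70.0 under 3Cl-HBA. Rab14, which acts between Golgi and endosomes, had 40.6, 43.0 and 37.7 FPKM under DMSO and 41.5, 40.0 and 40.0 under 3Cl-HBA, and Rab35, a Rab of fast recycling and cytokinesis, had 35.7, 31.3 and 37.1 FPKM under DMSO and 34.9, 34.1 and 35.5 under 3Cl-HBA. The fast-recycling genes Rab4b and Rab4a had 25.7 ± 2.15 and 25.2 ± 1.34 FPKM and 14.9 ± 1.95 and 14.2 ± 2.21 FPKM. Rab25 and Rab17, known from epithelia, were below 1 FPKM in every library.

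Of the members with other or several roles, Rab28, linked to cilia, had 44.6, 47.0 and 43.0 FPKM under DMSO and 49.1, 46.2 and 47.3 under 3Cl-HBA. Rab23, which restrains Hedgehog signalling, had 12.7, 13.7 and 13.5 FPKM under DMSO and 12.2, 13.4 and 11.2 under 3Cl-HBA, and Rab40c, whose protein joins ubiquitin ligases, had 9.01, 9.37 and 9.36 FPKM under DMSO and 8.68, 9.06 and 9.57 under 3Cl-HBA. Members under the filter on low counts were Rab3c, Rab17, Rab19, Rab25, Rab37 and Rab44, 6 of 57. Rab25 had 7, 3 and 10 reads under DMSO and 4, 13 and 7 under 3Cl-HBA, Rab44 had 6, 7 and 14 reads under DMSO and 8, 12 and 10 under 3Cl-HBA, and Rab37 had 2, 3 and 2 reads under DMSO and 4, 0 and 3 under 3Cl-HBA. Rab17 had 9, 1 and 1 reads under DMSO and 11, 1 and 0 under 3Cl-HBA, Rab19 had 0, 4 and 0 reads under DMSO and 0, 2 and 0 under 3Cl-HBA, and Rab3c had 0, 0 and 0 reads under DMSO and 0, 2 and 0 under 3Cl-HBA. A count of 0 allows up to 3 reads, or 0.174 to 0.227 CPM in these libraries by unadjusted totals, a limit that covers counting error only.

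Within families of close paralogs, one gene usually carried most of the transcript. In the 15 families with at least 2 members, the leading paralog held over 90% of the family's FPKM in 4 and over 75% in 9. Rab9a made up 99.3% ± 0.142 under DMSO and 99.3% ± 0.0887 under 3Cl-HBA, Rab7a 97.7% ± 0.134 under DMSO and 97.6% ± 0.272 under 3Cl-HBA, Rab6a 96.3% ± 0.366 under DMSO and 96.5% ± 0.0800 under 3Cl-HBA and Rab2a 94.0% ± 0.258 under DMSO and 93.5% ± 0.687 under 3Cl-HBA. The share of Rab1a over Rab1b was 86.9% ± 1.52 under DMSO and 86.7% ± 0.623 under 3Cl-HBA, and that of Rab31 over Rab22a 86.3% ± 0.667 under DMSO and 86.6% ± 0.109 under 3Cl-HBA. Other families were divided. Rab5c held 49.5% ± 0.848 under DMSO and 49.6% ± 1.09 under 3Cl-HBA, with Rab5b at 36.4% ± 0.567 under DMSO and 35.3% ± 0.696 under 3Cl-HBA and Rab5a at 14.1% ± 0.359 under DMSO and 15.1% ± 0.936 under 3Cl-HBA. Rab4b held 63.4% ± 1.43 under DMSO and 64.1% ± 3.25 under 3Cl-HBA, Rab8a 72.2% ± 3.38 under DMSO and 72.9% ± 0.422 under 3Cl-HBA and Rab11b 70.7% ± 2.77 under DMSO and 72.7% ± 2.30 under 3Cl-HBA. Rab3b held 67.7% ± 2.79 under DMSO and 66.2% ± 2.94 under 3Cl-HBA. Rab33b, one of the 9 leaders over 75%, held 83.0% ± 4.85 under DMSO and 82.4% ± 0.314 under 3Cl-HBA.

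**Figure D3:**
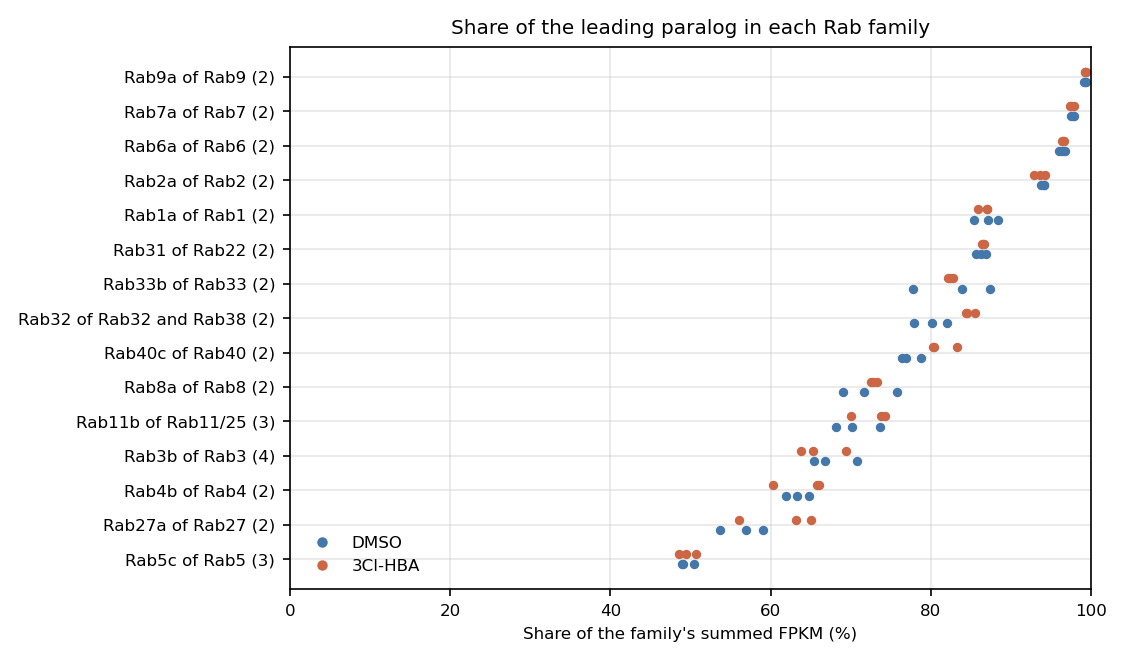
Share of the leading paralog in its family's summed FPKM, in percent, one point per library, with the number of paralogs in brackets; blue points are DMSO and orange points 3Cl-HBA. Shares run from about the level of Rab5c, at 49.6%, to that of Rab9a, at 99.3%, and only for Rab32 and Rab40c do the points of the treatments not overlap.

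Among leading paralogs, the mean shares of the treatments were at most 4.81 percentage points apart, for Rab27a, whose shares of 57.0%, 59.1% and 53.7% under DMSO and 65.1%, 56.0% and 63.1% under 3Cl-HBA overlapped. The 3 libraries of each treatment did not overlap for Rab32 over Rab38, with 80.1%, 82.1% and 77.9% under DMSO and 84.4%, 85.5% and 84.5% under 3Cl-HBA, nor for Rab40c over Rab40b, with 76.9%, 78.7% and 76.4% under DMSO and 83.3%, 80.3% and 80.4% under 3Cl-HBA. Rab5a, which does not lead its family, also had shares that did not overlap, at 14.1%, 14.5% and 13.7% under DMSO and 14.5%, 16.2% and 14.6% under 3Cl-HBA. Treatments did not overlap for 2 of the 15 leading paralogs. CPM, a different measure from a share, did not overlap for 10.5% of tested genes. CPM of Rab38 and Rab40b, the minor paralogs of these 2 families, did not overlap either, so these shares are not separate results. An exact permutation test of 3 against 3 libraries cannot give a p below 0.1, so no p is given for these shares. Reads of near-identical paralogs may have been divided by the authors' counting, which limits how exactly a share can be read. The gene span of Rab40c also shares bases with that of Mettl26, and Rab3a with Mpv17l2, on the opposite strand. Whether reads of the shared stretches were told apart is not known, since strandedness is not stated. By reads not divided by length, Rab5b led its family with 50.1%, and Rab5c had 40.0%.

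Upstream sequence was compared with level for 47 members found in a RefSeq table of rat assembly GRCr8, over the 250 bases before the annotated start. Unmethylated CpG-rich promoters are typical of broadly expressed genes, and the 42 matched members that passed the low-count filter had a median of 17 CpG dinucleotides (range 3 to 35). The median over 10945 tested genes of the table with an entry was 16, and over all 33469 entries it was 5. The 5 matched members under the filter had a median of 9 (range 4 to 13). Shown first, to let the contrast be seen, are Rab1a (chr14:98623427-98623676, plus strand, 26 CpG) and Rab7a (chr4:122064186-122064435, minus strand, 19 CpG), the most abundant members with an entry. Next are Rab44 (chr20:7166229-7166478, plus strand, 4 CpG) and Rab17 (chr9:99014033-99014282, minus strand, 6 CpG), the members under the filter with the fewest. The first pair was thus picked by level and the second by CpG count, which widens the contrast. Rab3c and Rab19, the least abundant members, had 13 and 11 CpG. Sequences run 5′ to 3′ on the gene's strand, and capitals mark each CpG.
Rab1a: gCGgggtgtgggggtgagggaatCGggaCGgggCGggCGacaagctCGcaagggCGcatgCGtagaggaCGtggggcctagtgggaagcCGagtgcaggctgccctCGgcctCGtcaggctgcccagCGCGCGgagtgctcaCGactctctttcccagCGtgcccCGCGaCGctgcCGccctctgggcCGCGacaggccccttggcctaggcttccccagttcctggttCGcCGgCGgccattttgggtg
Rab7a: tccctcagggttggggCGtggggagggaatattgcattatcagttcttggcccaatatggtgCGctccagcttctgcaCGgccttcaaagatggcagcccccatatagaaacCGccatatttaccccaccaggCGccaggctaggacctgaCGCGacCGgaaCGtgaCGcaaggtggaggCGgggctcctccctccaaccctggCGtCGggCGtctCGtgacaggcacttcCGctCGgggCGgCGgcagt
Rab44: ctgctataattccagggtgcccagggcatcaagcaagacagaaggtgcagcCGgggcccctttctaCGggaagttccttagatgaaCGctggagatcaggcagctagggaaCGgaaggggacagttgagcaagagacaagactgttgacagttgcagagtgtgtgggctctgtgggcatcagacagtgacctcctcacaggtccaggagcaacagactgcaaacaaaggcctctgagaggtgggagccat
Rab17: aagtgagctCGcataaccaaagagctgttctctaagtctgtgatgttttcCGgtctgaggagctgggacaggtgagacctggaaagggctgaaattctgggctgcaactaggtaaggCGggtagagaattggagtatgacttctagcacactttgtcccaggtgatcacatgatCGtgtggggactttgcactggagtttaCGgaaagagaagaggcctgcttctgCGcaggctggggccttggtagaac

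Across the 47 members, CpG count and mean FPKM had a Spearman's rho of 0.40, a description over genes, which are not replicates. Exceptions were plain on both sides. Rab14 had 3 CpG and 40.5 FPKM, while Rab9b had 19 CpG and 0.177 FPKM and Rab39a 17 CpG and 0.581 FPKM. Searched on both strands, TATAAA was in 0 windows of the 42 tested members, and in 6.71% of windows of tested genes. GGGCGG, which itself holds a CpG, was in 35 of 42 (83.3%) against 57.8%. CCAAT was in 15 (35.7% against 35.2%), and CACGTG, which also holds a CpG, in 3 (7.14% against 7.88%). No test was applied, and a match says only that the letters are there.

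**Figure D4:**
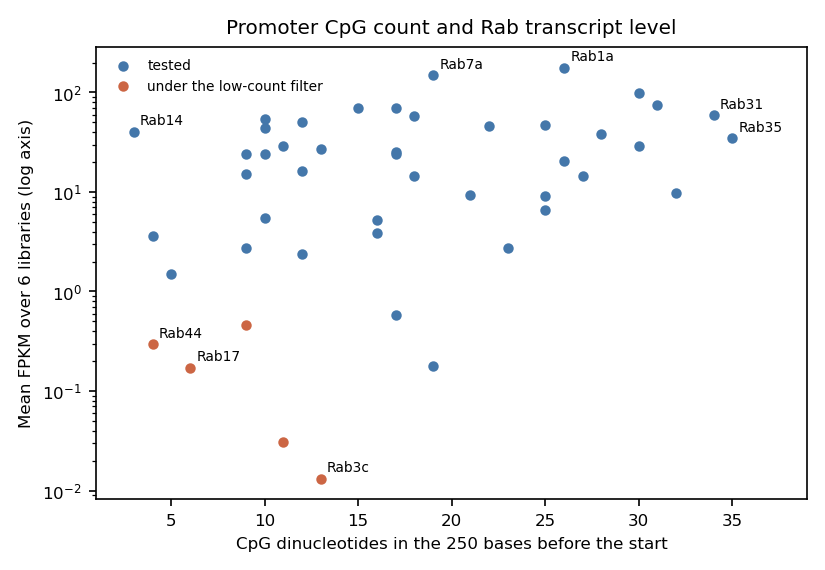
CpG dinucleotides in the 250 bases before the annotated start against mean FPKM over 6 libraries (log axis), one point per Rab gene; blue points passed the low-count filter and orange points did not. The orange points lie at 4 to 13 CpG, while blue points spread from 3 to 35.

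No Rab gene was called as changed by 3Cl-HBA. Of 51 tested members, 0 had a Benjamini-Hochberg adjusted p under 0.05 in edgeR's quasi-likelihood test over all 13903 tested genes, of which 0.0% were called. The smallest adjusted p of a member was 0.959. At an unadjusted p under 0.05 there was 1 member (1.96%), where 5.11% of all tested genes reached it (2.52% higher and 2.59% lower). DESeq2, run on more genes, gave 0 calls. In DESeq2, 1 of 57 members and 405 of 18107 genes had an unadjusted p under 0.05. Log2 fold changes, 3Cl-HBA minus DMSO, were above 0 for 30 members (58.8%, against 49.8% of tested genes) and below 0 for 21. Their median was 0.0068, beside -0.00052 over all tested genes. The libraries of the 2 treatments did not overlap in CPM for 4 members (7.84%, against 10.5% of tested genes). Of these, 1 was higher (Rab2b, against 5.24% of tested genes) and 3 were lower (Rab29, Rab38 and Rab40b, against 5.22%).

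**Figure D5:**
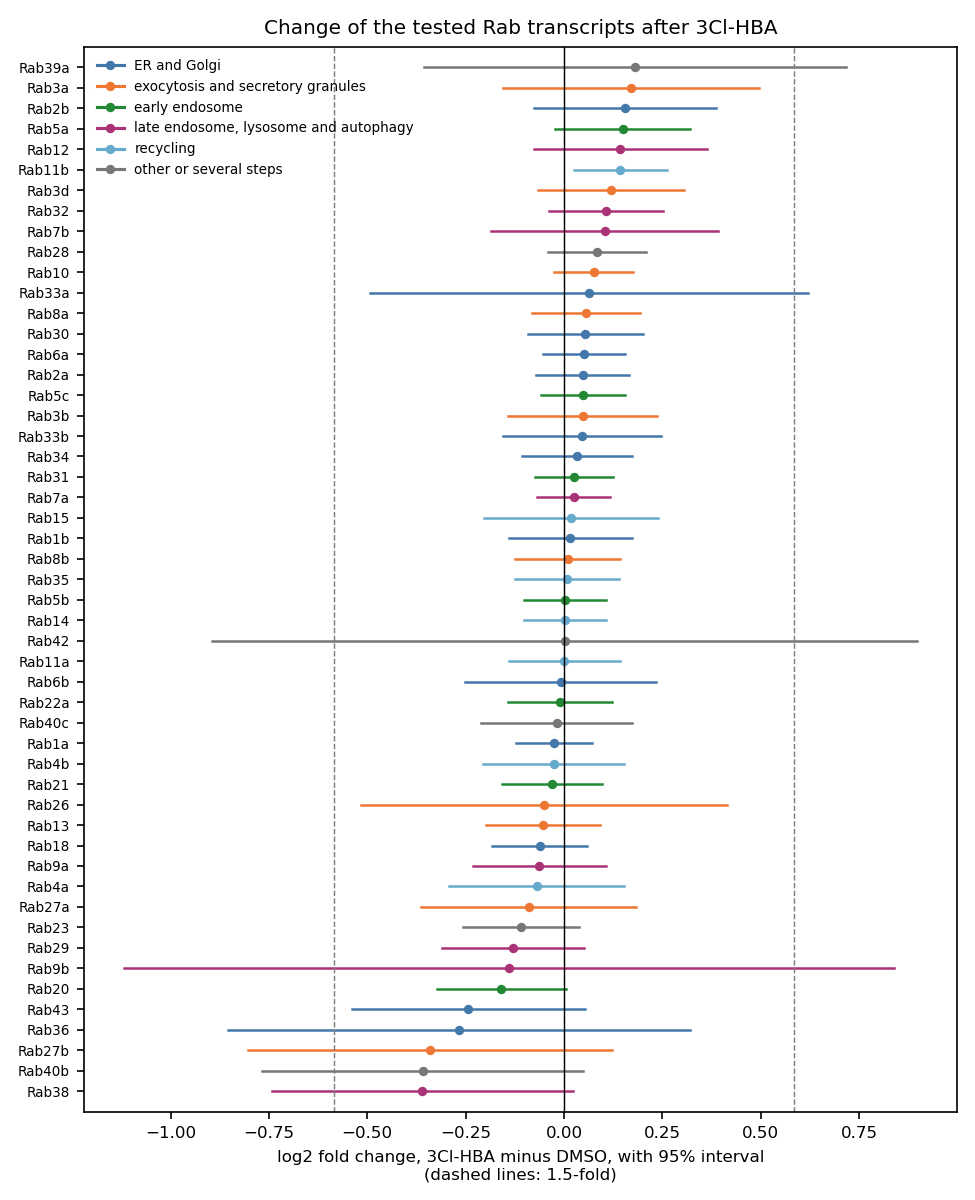
Log2 fold change, 3Cl-HBA minus DMSO, of the 51 tested Rab genes, with 95% intervals from edgeR, ordered by size and coloured by trafficking step; dashed lines mark 1.5-fold. Points lie between -0.36 and 0.18, and intervals widen for genes with few reads, such as Rab9b and Rab42.

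The difference between these 2 sets of 3 libraries was bounded closely for most members. Fold changes were held within 1.25-fold, over the whole 95% interval, for 35 of 51 (68.6%, against 59.6% of tested genes), within 1.5-fold for 43 (84.3% against 80.9%) and within 2-fold for 50. The exception to the last was Rab9b, with 8 to 13 reads per library. For the 18 genes that are the 3 most abundant of each step, log2 fold changes ran from -0.11 to 0.14, and no 95% interval reached below 0.837-fold or above 1.29-fold. The interval for Rab7a was 0.954 to 1.08-fold, and for Rab1a 0.919 to 1.05-fold. These intervals cover 1 gene at a time and are not adjusted for the number of genes. They rest on the spread between these libraries, which may be technical, and do not bound a change across cultures or animals.

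On the higher side, the members with the smallest unadjusted p were Rab11b, Rab5a, Rab10, Rab32 and Rab28, from 5 of the 6 steps. Rab11b had 113, 99.8 and 116 CPM under DMSO and 123, 125 and 114 under 3Cl-HBA (log2 fold change 0.14, SE 0.059, 95% interval 0.025 to 0.26, edgeR adjusted p 0.959, unadjusted p 0.019). Its 3Cl-HBA replicate 3 lay within the DMSO range, and DMSO replicate 2 was the lowest library; the value was 0.080 without DMSO replicate 2. Rab5a had 30.0, 32.3 and 30.2 CPM under DMSO and 32.0, 38.2 and 32.2 under 3Cl-HBA (log2 fold change 0.15, SE 0.086, 95% interval -0.024 to 0.32, edgeR adjusted p 0.975). Here 3Cl-HBA replicate 2 was the highest, and the value was 0.059 without 3Cl-HBA replicate 2. The gene span of Rab5a overlaps that of Pp2d1 on the opposite strand, and whether reads of the shared stretch were told apart is not known. Rab32 had 49.6, 55.7 and 47.8 CPM under DMSO and 56.6, 51.8 and 56.8 under 3Cl-HBA (log2 fold change 0.11, SE 0.072, 95% interval -0.038 to 0.25, edgeR adjusted p 0.984), with overlapping groups, and a value of 0.17 without DMSO replicate 2 and 0.060 without DMSO replicate 3. Rab10 and Rab28 had log2 fold changes of 0.075 (95% interval -0.026 to 0.18) and 0.083 (-0.040 to 0.21), both with overlapping groups and an edgeR adjusted p of 0.984. The value of Rab10 was 0.021 without 3Cl-HBA replicate 2 and 0.040 without DMSO replicate 3, and that of Rab28 0.053 without DMSO replicate 3.

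On the lower side were Rab20, Rab38, Rab40b, Rab43 and Rab23. Rab20, an endosomal and phagosomal Rab, had 34.9, 38.9 and 38.4 CPM under DMSO and 35.3, 31.4 and 33.9 under 3Cl-HBA (log2 fold change -0.16, SE 0.081, 95% interval -0.32 to 0.0040, edgeR adjusted p 0.959). Its highest treated library, replicate 1, lay just above its lowest DMSO library. Rab38 had 5.51, 5.44 and 6.06 CPM under DMSO and 4.70, 3.92 and 4.65 under 3Cl-HBA (log2 fold change -0.36, SE 0.19, 95% interval -0.74 to 0.022, edgeR adjusted p 0.965), and each treated library lay below each DMSO library, at 67 to 80 reads per library. Rab40b had 5.08, 4.75 and 5.45 CPM under DMSO and 3.27, 4.21 and 4.39 under 3Cl-HBA (log2 fold change -0.36, SE 0.20, 95% interval -0.77 to 0.049, edgeR adjusted p 0.975), again without overlap, at 48 to 72 reads. Rab43, a Golgi Rab, had 10.2, 9.29 and 10.8 CPM under DMSO and 8.04, 7.48 and 10.1 under 3Cl-HBA (log2 fold change -0.24, SE 0.15, 95% interval -0.54 to 0.053, edgeR adjusted p 0.975). Its 3Cl-HBA replicate 3 lay within the DMSO range, and the value was -0.15 without 3Cl-HBA replicate 2 and -0.38 without 3Cl-HBA replicate 3. Rab23 had a log2 fold change of -0.11 (95% interval -0.26 to 0.037) with overlapping groups, and -0.18 without 3Cl-HBA replicate 2 and -0.052 without 3Cl-HBA replicate 3. The other members whose groups did not overlap were Rab2b and Rab29. Rab2b, which overlaps Tox4 on the opposite strand, had 13.4, 13.6 and 13.8 CPM under DMSO and 14.4, 15.7 and 15.4 under 3Cl-HBA (log2 fold change 0.15, SE 0.11, 95% interval -0.076 to 0.39, edgeR adjusted p 0.984). Rab29, a Rab of the trans-Golgi network and lysosome, had 25.7, 27.8 and 29.7 CPM under DMSO and 25.3, 25.1 and 25.5 under 3Cl-HBA (log2 fold change -0.13, SE 0.090, 95% interval -0.31 to 0.052, edgeR adjusted p 0.984).

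By step, 0 members were called in each, and signs were mixed, where 49.8% of all tested genes were above 0. Members above 0 were 8 of 13 for the endoplasmic reticulum and Golgi, 6 of 10 for exocytosis and granules, 4 of 7 for the early endosome, 4 of 8 for the late endosome and lysosome, 5 of 7 for recycling and 3 of 6 for other roles. The median log2 fold changes of the steps ran from -0.019, for the late endosome and lysosome, to 0.033, for the endoplasmic reticulum and Golgi.

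The proteins that load, switch and read Rabs gave no calls either. Of 124 listed genes, 121 were matched and 116 tested, and 0 passed. Log2 fold changes were above 0 for 48 and below 0 for 68, with a median of -0.022. Of all tested genes, 49.8% were above 0. At an unadjusted p under 0.05 there were 6 (5.17%, near the 5.11% of all tested genes). All 6 were lower, where 2.59% of all tested genes were lower at that p. All 6 stayed under 0.05 in limma-voom, with library totals alone and with each of the 2 other filters on low counts. In other alternatives the set was smaller. In edgeR with length trends removed, Gapvd1, Evi5, Mical3 and Rbsn had an unadjusted p of 0.064, 0.073, 0.063 and 0.062. In DESeq2, Gapvd1, Evi5, Tbc1d20 and Rbsn had 0.058, 0.052, 0.056 and 0.082. Of the 6, only Ric1 stayed under 0.05 in each of the 13 alternatives. Among genes that prenylate Rabs or extract them from membranes, 0 of 6 were at an unadjusted p under 0.05. The GDP dissociation inhibitor Gdi2, which extracts Rabs from membranes, had 344 ± 15.9 and 352 ± 9.02 CPM in DMSO and after 3Cl-HBA. The transferase subunit Rabggtb had 100.1 ± 6.39 and 104 ± 4.72 CPM. The log2 fold change of Rabggtb was 0.058 (95% interval -0.061 to 0.18), and 0.097 without DMSO replicate 1 and 0.0056 without DMSO replicate 3 and 0.021 without 3Cl-HBA replicate 1.

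Of 30 tested exchange factors, 11 were above 0. Ric1, part of the exchange factor for Rab6, had 78.0, 73.8 and 78.0 CPM under DMSO and 67.4, 67.3 and 69.8 under 3Cl-HBA (log2 fold change -0.17, SE 0.062, 95% interval -0.29 to -0.043, edgeR adjusted p 0.959, unadjusted p 0.0098). Gapvd1, which acts on Rab5, had 117, 104 and 106 CPM under DMSO and 99.7, 99.6 and 102 under 3Cl-HBA (log2 fold change -0.12, SE 0.058, 95% interval -0.24 to -0.0061, edgeR adjusted p 0.959), and its value was -0.070 without DMSO replicate 1. In both genes each treated library lay below each DMSO library. The exchange factors with the most reads, Dennd5a and Sbf1, had 272 ± 10.1 and 274 ± 11.2 CPM and 144 ± 3.00 and 135 ± 7.03 CPM.

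Of 30 tested GTPase-activating proteins, 15 were above 0. Tbc1d20, which switches off Rab1, had 71.0, 72.2 and 73.3 CPM under DMSO and 66.8, 63.1 and 67.3 under 3Cl-HBA (log2 fold change -0.13, SE 0.063, 95% interval -0.26 to -0.0074, edgeR adjusted p 0.959), and Evi5 had 59.4, 57.1 and 55.5 CPM under DMSO and 52.5, 51.3 and 51.4 under 3Cl-HBA (log2 fold change -0.15, SE 0.068, 95% interval -0.29 to -0.012, edgeR adjusted p 0.959). The libraries of the treatments did not overlap in either gene. Tbc1d15, which acts on Rab7, and Tbc1d9b had 117 ± 11.0 and 127 ± 1.09 CPM and 123 ± 5.66 and 124 ± 6.25 CPM.

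Of 46 tested effectors, 18 were above 0. Mical3, an effector of Rab8 and Rab6, had 149, 137 and 149 CPM under DMSO and 128, 131 and 140.4 under 3Cl-HBA (log2 fold change -0.12, SE 0.054, 95% interval -0.23 to -0.015, edgeR adjusted p 0.959), and the Rab4 and Rab5 effector Rbsn had 38.1, 37.5 and 33.8 CPM under DMSO and 34.5, 33.8 and 28.0 under 3Cl-HBA (log2 fold change -0.18, SE 0.086, 95% interval -0.36 to -0.0099, edgeR adjusted p 0.959). In both genes the groups overlapped, and the value of Rbsn was -0.096 without 3Cl-HBA replicate 3. The Golgi tether Uso1 and the dynein adaptor Bicd2, with the most reads, had 177 ± 5.61 and 176 ± 13.1 CPM and 163 ± 4.81 and 159.6 ± 3.73 CPM. The kinases Lrrk2 and Lrrk1, which phosphorylate Rabs, had 93.5 ± 5.61 and 88.7 ± 7.00 CPM and 58.1 ± 3.11 and 56.2 ± 0.434 CPM, and Ppm1h, which removes the phosphate, had a log2 fold change of -0.13 (95% interval -0.33 to 0.082), and -0.079 without DMSO replicate 1. The log2 fold change of Lrrk2 was -0.075 (-0.20 to 0.051). It was -0.025 without DMSO replicate 1 and -0.012 without 3Cl-HBA replicate 1, -0.12 without 3Cl-HBA replicate 3, and -0.036 with length trends removed.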

How the data were processed

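Total RNA of 6 libraries was prepared with a ribosomal RNA removal kit for Illumina sequencing, and the authors analysed it with DESeq2, per the labels' protocols. For aligner, counting program, strandedness and genome build, nothing is stated in the sources read here. The deposited values are whole-number read counts per gene, not normalised, and FPKM computed by the authors, per the file headers; recomputing FPKM from counts, lengths and library totals matched within a relative gap of 8.2e-08. Gene lengths and coordinates are the deposited ones. Columns were assigned through the treatment protocol and titles in the labels.

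The count test was edgeR 4.0.16 under R 4.3.3, using TMM factors, a filterByExpr minimum of 10 counts and a robust quasi-likelihood fit without a block, and p-values were adjusted over all 13903 tested genes. SEs are the absolute log2 fold change divided by the square root of F. Printed CPM use TMM-scaled totals. Alternatives were DESeq2 1.42.0, limma 3.58.1 (voom), library totals alone, 2 other filters, a replicate block, removal of length trends, and leaving out each library. The edgeR test was also run on counts simulated from its own fitted means and dispersions. That run cannot show whether the spread between these libraries is technical. Genes were named by rule: the 3 most abundant members of each step, the 5 members per direction with the smallest unadjusted p, members under the filter, paralogs, and for each regulator list the 2 genes with the smallest p and the 2 with the most reads; a result that this rule selects is not reported here. Members and lists were chosen with earlier results of these data known; members whose groups did not overlap, and further members named by level, were added after their values were seen. Rab steps, families and regulator lists were written from general knowledge, and 3 listed Rab symbols were not matched. A planned description of protein sequences was not run, since no protein table was used here. Sequences come from RefSeq (GRCr8), matched by gene identifier or symbol.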

Additional observations from a re-analysis of the deposited data

How the results depend on the processing

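No Rab gene and no listed Rab regulator was called under any of the 13 alternatives, and the 20 genes that the rule selects for their p kept their direction in each alternative that gave them a value, with adjusted p from 0.463 to 1.00, although leaving out 1 library moved some of their values by over 1.5 times, as given beside each. The smallest, 0.463, was that of Rab11b without DMSO replicate 3. The median log2 fold change of the members ran from 0.0037 to 0.020. Over all genes 0 were called, 2 with no filter on low counts, and 0 to 8 when a library was left out: 8 without DMSO replicate 3, 3 without 3Cl-HBA replicate 3, 2 without 3Cl-HBA replicate 2 and 1 without DMSO replicate 2. The cause was not tested.

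Replicate numbers gave no sign of pairing over the tested genes: deviations of same-numbered libraries from their group means correlated at -0.069, -0.044 and -0.045. Whether libraries were prepared in matched sets cannot be told from this. With the replicate number as a block, edgeR called 0 genes (604 at an unadjusted p under 0.05) and 0 Rab genes, with a members' median log2 fold change of 0.012.

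Without division by gene length, the shares of Rab reads were 30.3% for the endoplasmic reticulum and Golgi, 15.4% for exocytosis and 20.4% for the early endosome. They were 14.4% for the late endosome and lysosome, 14.9% for recycling and 4.68% for other roles. Recycling thus stood above the late endosome and lysosome, the reverse of their order by FPKM. Exocytosis stood above the late endosome and lysosome too, where by FPKM these steps were near equal, at 14.1% and 14.2%. Shares by read counts of the paralogs that lead by FPKM were Rab2a 89.1%, Rab3b 46.3%, Rab4b 58.3%, Rab5c 40.0%, Rab6a 95.2%, Rab7a 97.4%, Rab8a 51.0%, Rab9a 97.9%, Rab11b 64.8%, Rab31 75.2%, Rab27a 74.2%, Rab32 91.3%, Rab33b 92.2% and Rab40c 83.2%, and Rab5b in place of Rab5c led its family. These values differ from the FPKM shares by construction, through gene length. Depth limits the members with few reads, of which Rab9b had the widest interval.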

Other observations

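Rab17 reads came mostly from replicate 1 of each treatment, with 9 reads in DMSO and 11 after 3Cl-HBA, against 0 or 1 in the other 4 libraries. No explanation was tested.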
